A study of Homo sapiens with 24 samples.

Results

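The genes described here encode the nuclear lamina and the proteins that hold it to the inner nuclear membrane and to chromatin: LMNA, LMNB1, LMNB2, LBR, TMPO, EMD, LEMD3, SUN1, SUN2 and BANF1. They were chosen by name, and all 10 were found among the 57736 genes of the count table and passed the filter on low counts. The libraries were made from U87-T cells, a human glioblastoma line (U87) transduced with a floxed TERT transgene. The paper names this transgene for the control line and describes both knockouts as U87-T clones. Whether every group kept the transgene was not checked here. In the DAXX series, DAXX_WT and DAXX_KO cells were profiled without drug (control) and after etoposide, and the ATRX series had the same layout with ATRX_WT and ATRX_KO cells. Each of the 8 groups had 3 libraries, and each series had its own WT libraries. Etoposide blocks topoisomerase II after it has cut DNA and so causes double-strand breaks. Its dose and duration for these libraries were not given in the sources used here. The WT cells carried an empty Cas9 vector. Each knockout was 1 clone grown from a single cell, with features of ALT, the upkeep of telomeres by recombination, so the lost gene, the clone and these features cannot be told apart in any comparison of KO with WT.

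Library totals ranged from 6928950 to 13298557 counts with a median of 10267415.5, and the most abundant gene took 3.08% to 12.1% of a library. Levels are given as CPM, counts scaled to the same effective library size. DAXX mRNA was 33.9 ± 1.24 CPM (SD, n = 3) in DAXX_WT control cells and 5.83 ± 1.06 CPM in DAXX_KO control cells. ATRX mRNA was 192 ± 4.63 CPM in ATRX_WT control cells and 80.6 ± 6.08 CPM in ATRX_KO control cells, a log2 change of −1.25. The reads come from the 3′ end of a transcript, which may lie outside an edited exon, so these levels are no check of the edit itself. The genotype field of the DAXX_KO libraries names ATRX, whereas ATRX mRNA was higher there than in DAXX_WT (386 ± 25.7 against 229 ± 14.2 CPM), and the sample titles were followed. Markers of a mesenchymal glioblastoma line were present (VIM 1193 to 5981 CPM, CD44 346 to 1056 CPM), while the glial markers GFAP, OLIG1, SOX10, FABP7 and S100B were at or below 0.50 CPM in every library. The glial and neural markers OLIG2 and SOX2 reached 1.71 and 4.59 CPM. Some markers of other cell types were also detected in every library. These were CD68 (17.8 to 41.9 CPM), SYT1 (10.1 to 36.3 CPM), KRT8 (3.73 to 29.8 CPM) and MBP (4.48 to 22.7 CPM). CD3E, CDH5, EPCAM, PTPRC and RBFOX3 were at or below 3.02 CPM in every library. The study describes its replicates in general as biological, but the labels do not tie the libraries of a group to separate cultures, so p-values measure the spread between these libraries, which may be partly technical.

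Replicate 1 of the ATRX_KO etoposide group stood apart from the other two. Its counts differed from theirs with a chi-square per degree of freedom of 11.04 and 17.1, against 6.07 between replicates 2 and 3, although the pairs of ATRX_KO control libraries also differed with 9.46 to 13.7, and it had 23427 genes detected against 24851 and 24810. Without it, the members called in ATRX_KO against ATRX_WT cells after etoposide went from 5 to 6 and those called in the ATRX_KO response from 8 to 7. Those with a called interaction in the ATRX series went from 4 to 5, and the genes concerned are given with each comparison. With every library in, 45.9%, 49.5% and 16% of all genes were called in these 3 comparisons. The shares of all genes without replicate 1 are not given here.

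The lamina is a meshwork of A-type lamins (from LMNA) and B-type lamins (from LMNB1 and LMNB2) beneath the inner nuclear membrane, which supports the nucleus and anchors heterochromatin. The other members encode proteins that bind it, most of them in the inner membrane. LBR is the lamin B receptor, and SUN1 and SUN2 connect the lamina through nesprins to the cytoskeleton. TMPO (lamina-associated polypeptide 2), EMD (emerin) and LEMD3 (MAN1) share the LEM domain, which binds the small DNA-bridging protein BAF made by BANF1. In many cell types LMNB1 mRNA declines when cells stop dividing for good, which has made it a common marker of senescence, whereas LMNA is expressed in dividing and resting differentiated cells alike.

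Promoter sequence was available for 9 members, in 15 windows, from RefSeq on GRCh38.p14. The 6 windows printed in this paragraph hold the 150 bases before a start site, written 5′ to 3′ on the strand of the gene. They belong to both B-type lamins, the lamin B receptor, TMPO and SUN2, which fell in all 4 backgrounds after etoposide, and to EMD, which was called higher. SUN1, which fell as well, is not among the 9, and of the 3 windows of SUN2 the one that holds motifs is printed. For LMNB1 the window with a motif is printed too, while another (chr5:126776473-126776622) holds none of the motifs searched. TMPO has another window that overlaps the printed one and holds CCAAT as well. Capitals mark CCAAT, the word bound by the factor NF-Y, or its complement ATTGG, and in SUN2 also TTCAAA, the complement of the CHR word TTTGAA.
LMNB1 (chr5:126776986-126777135, plus strand): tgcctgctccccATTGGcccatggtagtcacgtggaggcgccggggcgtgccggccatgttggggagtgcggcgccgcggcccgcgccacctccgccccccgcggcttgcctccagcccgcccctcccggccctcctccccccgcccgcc
LBR (chr1:225428822-225428971, minus strand): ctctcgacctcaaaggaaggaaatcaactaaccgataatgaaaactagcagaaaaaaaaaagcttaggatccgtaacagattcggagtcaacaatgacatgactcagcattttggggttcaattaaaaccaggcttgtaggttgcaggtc
TMPO (chr12:98515423-98515572, plus strand): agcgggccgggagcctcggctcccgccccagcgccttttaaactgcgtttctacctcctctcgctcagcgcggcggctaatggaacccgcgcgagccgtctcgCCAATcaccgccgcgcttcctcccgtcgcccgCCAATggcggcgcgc
LMNB2 (chr19:2456960-2457109, minus strand): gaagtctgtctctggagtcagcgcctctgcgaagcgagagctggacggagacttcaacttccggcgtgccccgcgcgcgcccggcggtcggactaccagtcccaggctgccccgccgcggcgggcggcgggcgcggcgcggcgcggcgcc
SUN2 (chr22:38755999-38756148, minus strand): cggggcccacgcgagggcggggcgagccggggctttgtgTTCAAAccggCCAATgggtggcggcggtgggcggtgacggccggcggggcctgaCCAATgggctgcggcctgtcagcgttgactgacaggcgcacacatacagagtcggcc
EMD (chrX:154379145-154379294, plus strand): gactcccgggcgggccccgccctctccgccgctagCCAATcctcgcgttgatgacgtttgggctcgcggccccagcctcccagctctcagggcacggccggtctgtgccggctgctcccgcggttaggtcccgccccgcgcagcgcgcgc

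Both strands of a window from 250 bases before to 50 bases after each start site were searched for 3 motifs. CCAAT was found in 7 of the 15 windows, which belong to 6 of the 9 members, and in 34.6% of 35116 promoter windows of the same length. The E2F words TTTCCCGC, TTTCGCGC, TTTGCCGC and TTTGGCGC were found in 2 of the 15 windows, those of LMNA and LEMD3, and in 3.31% of all promoters. The CHR words TTTGAA and TTCGAA, which mark many genes of late cell cycle, were found in 2 of the 15, those of LMNB2 and SUN2, and in 16.4% of all promoters. LMNB1, TMPO, SUN2 and EMD hold CCAAT within these windows, LBR holds none of the 3 motifs and LMNB2 holds only TTTGAA, at 246 bases before its start and thus outside the stretch printed above. These matches describe letters and not bound sites.

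The levels of the members differed by treatment and genotype as follows, in CPM scaled within a series and given in the order of replicates 1, 2 and 3. Levels are compared only for the same gene, since CPM is not corrected for differences between genes. In bulk libraries fewer cells that express a gene and less RNA per cell cannot be told apart.

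**Figure D1:**
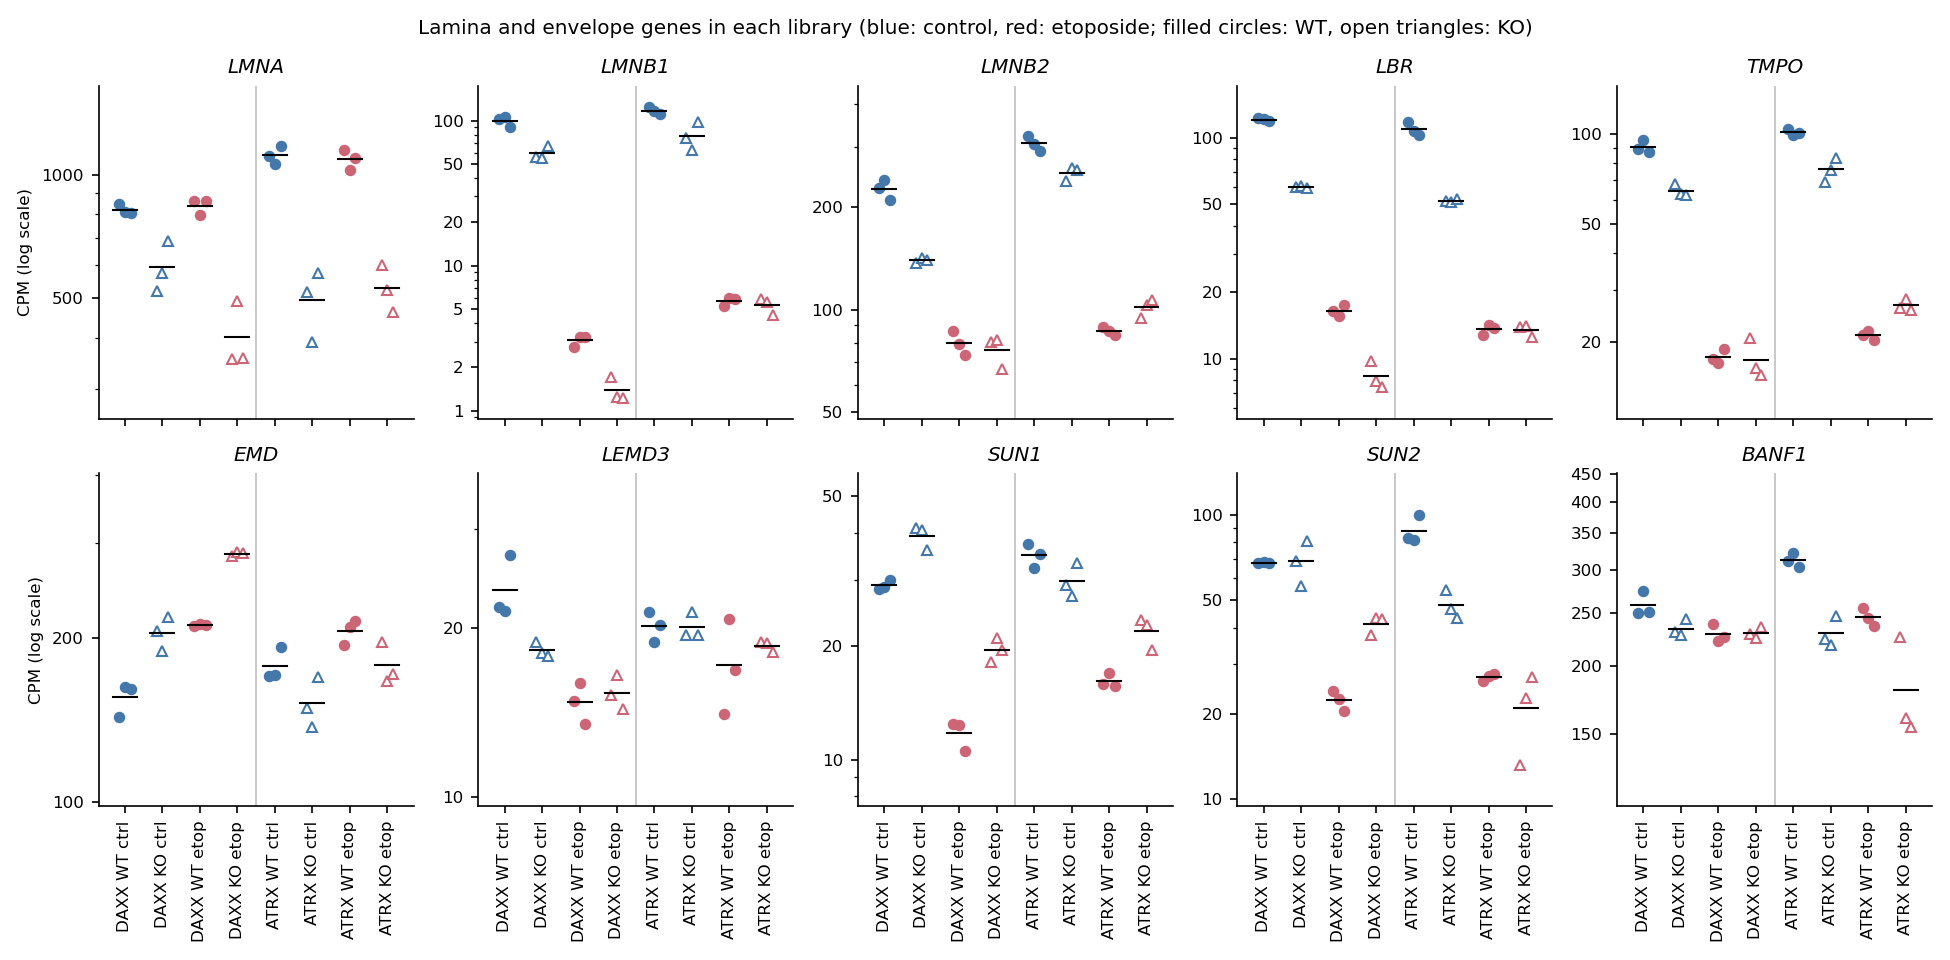
Each panel shows 1 member on a logarithmic CPM axis for the 8 groups, with blue for control, red for etoposide, filled circles for WT, open triangles for KO and a bar for the mean of 3 libraries. LMNB1, LBR, TMPO, LMNB2, SUN1 and SUN2 drop with etoposide in all 4 backgrounds, EMD sits higher after etoposide, and LMNA separates by genotype instead.

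LMNA (GRCh37 chr1:156052364-156109872, plus strand) gives lamin A and lamin C, which these counts per gene do not separate. In DAXX_WT cells it was at 848, 809 and 806 CPM in control and 862, 797 and 862 CPM after etoposide. In DAXX_KO cells it was at 520.4, 576 and 690.2 CPM in control and 355, 490.2 and 356 CPM after etoposide. The WT libraries with and without drug overlapped and stood above every KO library, and the KO etoposide libraries were the lowest. In the ATRX series the WT libraries held 1111, 1060.0 and 1174 CPM in control and 1147, 1026 and 1095 CPM after etoposide. The ATRX_KO libraries held 518, 390.0 and 576 CPM in control and 601, 523 and 463 CPM after etoposide. There the genotypes were apart and the treatments within a genotype overlapped.

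LMNB1 (chr5:126112315-126172712, plus strand), a B-type lamin, ranged from 1.23 to 124 CPM. It was at 103, 106 and 90.8 CPM in DAXX_WT control cells and at 2.76, 3.21 and 3.24 CPM after etoposide. DAXX_KO cells held 56.5, 55.7 and 67.3 CPM in control and 1.71, 1.24 and 1.23 CPM after etoposide, the last from 14, 12 and 11 counts. No groups of the DAXX series overlapped, in the order WT control, KO control, WT etoposide and KO etoposide. ATRX_WT cells held 124, 117 and 111 CPM in control and 5.27, 6.02 and 5.92 CPM after etoposide. ATRX_KO cells held 75.8, 63.2 and 97.2 CPM in control and 5.88, 5.63 and 4.6 CPM after etoposide, and the etoposide groups of both genotypes overlapped.

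LMNB2 (chr19:2427636-2456957, minus strand) encodes the other B-type lamin. Its DAXX_WT libraries were at 228, 239.9 and 209.6 CPM in control and 86.2, 79.3 and 73.6 CPM after etoposide, and its DAXX_KO libraries at 137, 142 and 139.7 CPM and 80.3, 81.2 and 66.9 CPM. The control groups were apart and the etoposide groups overlapped. ATRX_WT libraries were at 324, 307 and 292 CPM in control and 89.0, 86.3 and 84.1 CPM after etoposide, and ATRX_KO libraries at 238, 259.7 and 256 CPM and 94.6, 103 and 107 CPM. Here all 4 groups were apart, with KO below WT in control and above it after etoposide.

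LBR (chr1:225589204-225616627, minus strand), which binds B-type lamins and heterochromatin and is also a sterol reductase, ranged from 7.50 to 123 CPM. DAXX_WT libraries held 123, 121 and 119 CPM in control and 16.4, 15.7 and 17.6 CPM after etoposide. DAXX_KO libraries held 59.9, 60.6 and 59.3 CPM and 9.75, 7.98 and 7.50 CPM, below WT in both treatments with no overlap. ATRX_WT libraries held 118, 108 and 103 CPM in control and 12.9, 14.2 and 13.9 CPM after etoposide. ATRX_KO libraries held 51.6, 51.5 and 53.1 CPM and 14.0, 14.2 and 12.5 CPM, so that the genotypes were apart in control and overlapped after etoposide.

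TMPO (chr12:98909357-98944129, plus strand) encodes the isoforms of lamina-associated polypeptide 2, which counts per gene do not separate. It fell from 90.8 ± 4.36 to 17.9 ± 1.05 CPM in DAXX_WT cells (SD, n = 3) and from 64.5 ± 3.34 to 17.5 ± 2.74 CPM in DAXX_KO cells. ATRX_WT cells went from 102 ± 2.15 to 21.1 ± 0.751 CPM and ATRX_KO cells from 76.3 ± 6.97 to 26.6 ± 1.26 CPM. The antisense gene TMPO-AS1 held 696 counts in all libraries against 13033 for TMPO, and whether counting used strand is not given in the sources used here.

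EMD (chrX:153607633-153609934, plus strand) encodes emerin. Its DAXX_WT libraries were at 144, 163 and 161 CPM in control and 210.4, 213 and 212 CPM after etoposide. Its DAXX_KO libraries were at 206, 189 and 219 CPM in control and 284, 288 and 288 CPM after etoposide, the highest EMD levels of the study. WT etoposide and KO control libraries overlapped, and the other groups of the DAXX series were apart. ATRX_WT libraries were at 170.3, 171 and 193 CPM in control and 195, 210.3 and 215 CPM after etoposide, and ATRX_KO libraries at 149, 137 and 169.5 CPM and 197, 167 and 172 CPM. Control ATRX_KO libraries were below all control ATRX_WT libraries, and the etoposide groups overlapped.

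LEMD3 (chr12:65563363-65642135, plus strand), an inner membrane protein that binds SMAD proteins and restrains TGF-beta signalling, stayed between 13.5 and 26.9 CPM in all 24 libraries. Its group means in the DAXX series were 23.4 ± 3.06 CPM in WT control, 18.3 ± 0.55 CPM in KO control, 15.3 ± 1.07 CPM in KO etoposide and 14.8 ± 1.22 CPM in WT etoposide cells (SD, n = 3), and the etoposide groups overlapped. The means of the ATRX series lay between 17.2 ± 3.35 CPM in WT etoposide and 20.2 ± 1.27 CPM in WT control cells.

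BANF1 (chr11:65769699-65771620, plus strand) stayed between 155 and 322 CPM. In the DAXX series its group means ran from 229 ± 8.74 CPM in WT etoposide to 258 ± 13.8 CPM in WT control cells. In the ATRX series it was at 312 ± 9.53 CPM in WT control, 246 ± 9.36 CPM in WT etoposide and 229.6 ± 15.4 CPM in KO control cells. The ATRX_KO etoposide libraries were at 226, 160.1 and 155 CPM, and the first of them lay within the KO control range.

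SUN1 (chr7:856252-936072, plus strand) and SUN2 (chr22:39129295-39190148, minus strand) are the inner membrane proteins of the LINC complex. SUN1 was at 28.3, 28.7 and 30.03 CPM in DAXX_WT control and 12.4, 12.4 and 10.5 CPM in DAXX_WT etoposide libraries. DAXX_KO libraries held 41.1, 40.6 and 36.0 CPM of SUN1 in control and 18.2, 21.0 and 19.5 CPM after etoposide, above WT in both treatments with no overlap. In the ATRX series SUN1 was at 34.9 ± 2.63 CPM in WT control, 29.8 ± 3.07 CPM in KO control, 21.9 ± 2.1 CPM in KO etoposide and 16.2 ± 0.717 CPM in WT etoposide cells (SD, n = 3), and the control groups overlapped. SUN1 overlaps GET4 on the same strand, and GET4 held 6385 counts against 6225 for SUN1, so reads may have been split between them.

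SUN2 was at 67.6, 68.0 and 68.0 CPM in DAXX_WT control and 23.97, 22.6 and 20.5 CPM in DAXX_WT etoposide libraries. DAXX_KO libraries held 69.1, 56.2 and 80.6 CPM of SUN2 in control, which spread to both sides of WT, and 37.8, 43.5 and 43.1 CPM after etoposide, all above WT. In the ATRX series SUN2 was at 82.7, 81.5 and 100.02 CPM in WT control and 54.4, 46.8 and 43.5 CPM in KO control libraries. After etoposide it was at 26.1, 27.2 and 27.6 CPM in WT and 13.3, 22.7 and 27.0 CPM in KO libraries, and these groups overlapped. SUN2 overlaps DNAL4 on the same strand (8967 counts in all libraries against 11734 for SUN2) and GTPBP1 on the opposite strand (2994 counts).

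The first comparison asked how parental cells respond to etoposide. LMNB1, LBR, TMPO and LMNB2 fell in WT cells of both series, as did SUN1 and SUN2, while EMD rose and LMNA showed no change that the test could call. In the DAXX series LMNB1 fell 32.4-fold, a log2 change of −5.02 (SE 0.134, quasi-likelihood test of edgeR, adjusted over all genes tested by Benjamini-Hochberg, adjusted p = 1.7e-16). LBR fell 7.31-fold (log2 −2.87, SE 0.0864, adjusted p = 9.14e-16), TMPO fell 5.08-fold (log2 −2.35, SE 0.0989) and LMNB2 fell 2.83-fold (log2 −1.50, SE 0.0826). SUN2 fell 3.03-fold (log2 −1.60, SE 0.114) and SUN1 fell 2.45-fold (log2 −1.30, SE 0.11). LEMD3 fell 1.58-fold (log2 −0.66, SE 0.12, adjusted p = 9.42e-05). EMD rose 1.36-fold (log2 0.44, SE 0.0674, adjusted p = 1.23e-05), and the log2 change of LMNA was 0.03, with a 95% interval from −0.19 to 0.25. BANF1 was called 1.13-fold lower (adjusted p = 0.0198), a call that was lost without DAXX_WT control replicate 2 (0.129), DAXX_WT etoposide replicate 2 (0.0724) or replicate 3 (0.0535), with a stricter count filter (0.144) and in a fit of all 24 libraries (0.0831).

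Thus 9 of the 10 members were called in WT cells of the DAXX series, where 60.2% of 15247 genes tested were called. Of the members, 8 were lower and 1 was higher, against 30.6% and 29.6% of all genes. The median log2 change was −1.40 over the members and 0.02 over all genes.

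WT cells of the ATRX series gave values of the same order. LMNB1 fell 20.4-fold (log2 −4.35, SE 0.155, adjusted p = 4.49e-13), LBR 8.03-fold (log2 −3.01, SE 0.0905), TMPO 4.8-fold (log2 −2.26, SE 0.0865) and LMNB2 3.55-fold (log2 −1.83, SE 0.0744). SUN2 fell 3.26-fold and SUN1 2.16-fold, and BANF1 fell 1.27-fold (adjusted p = 0.0118). The log2 change of LMNA was −0.03 (95% interval −0.28 to 0.21), and that of LEMD3 was −0.23 (−0.50 to 0.04), which was called without ATRX_WT etoposide replicate 2 (−0.40, adjusted p = 0.0125). EMD was called 1.16-fold higher at an adjusted p of 0.047. That call was lost without ATRX_WT control replicate 1 (0.15) or replicate 2 (0.162), or without ATRX_WT etoposide replicate 1 (0.0658), replicate 2 (0.158) or replicate 3 (0.208), and with DESeq2 (0.0618) or no count filter (0.124). Altogether 8 members were called among a background of 61.5% of 16371 genes, 7 lower and 1 higher against 29.8% and 31.7%. The median log2 change was −1.41 over the members and 0.07 over all genes.

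**Figure D2:**
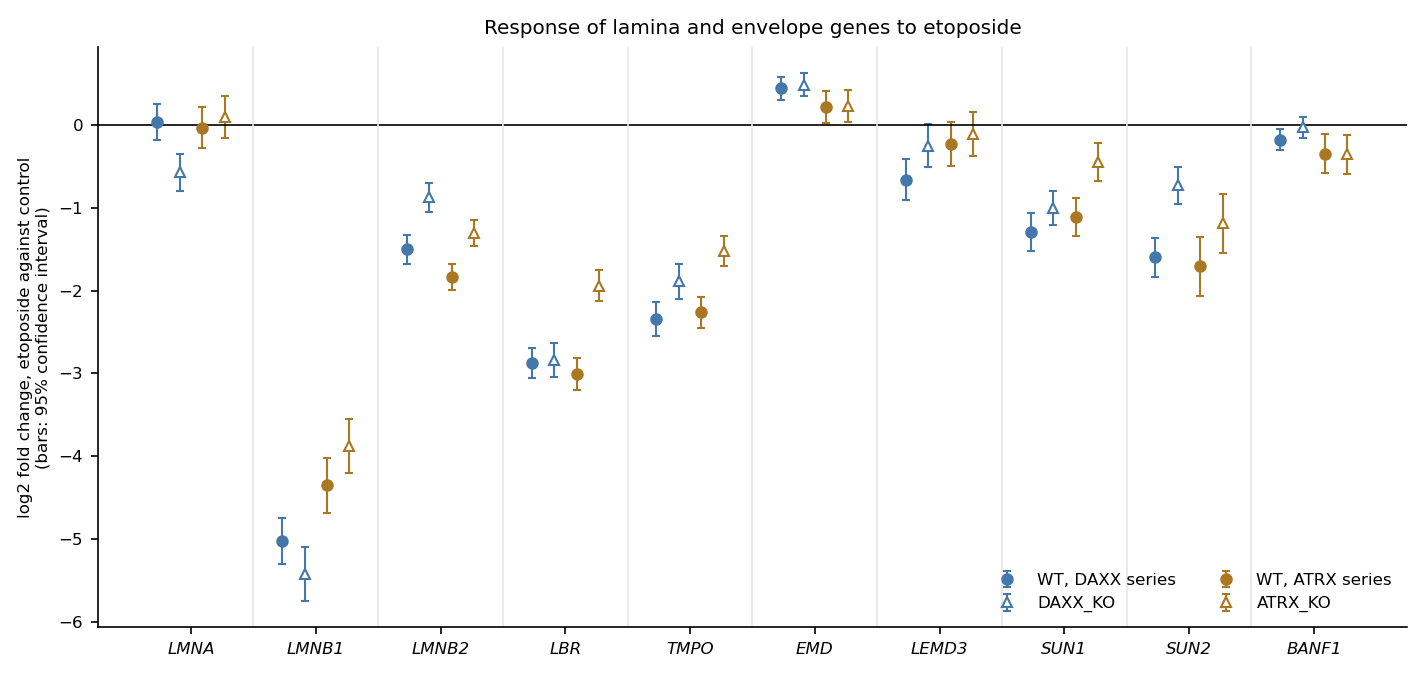
Points give the log2 change with etoposide for each member, blue for the DAXX and brown for the ATRX series, with filled circles for WT and open triangles for KO, and bars give the 95% interval of the edgeR fit. LMNB1 lies between −5.42 and −3.88, EMD lies above 0 in all 4 backgrounds, and LMNA lies between −0.03 and 0.10 except in DAXX_KO cells, where it is at −0.57.

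Markers of cell division moved with these members. The summed level of 26 proliferation genes was 9222 to 9266 CPM in DAXX_WT control libraries and 1961 to 2071 CPM after etoposide, and 25 of the 26 fell. In ATRX_WT cells the sum went from between 10098 and 10271 CPM to between 2566 and 2675 CPM, and 24 fell. TOP2A, the target of etoposide and a gene of dividing cells, fell with log2 changes of −4.37 and −3.93 in the DAXX and ATRX series, and PLK1, a mitotic kinase, with −4.77 and −4.21. All 14 genes of a list of p53 targets rose in WT cells of both series. The counts of lists in this paragraph stand beside 30.6% of all genes lower and 29.6% higher in DAXX_WT cells. In ATRX_WT cells these shares were 29.8% and 31.7%. Glial and mesenchymal markers fell as well, 5 of 6 tested lower and 0 higher in DAXX_WT cells (median log2 −1.06). In ATRX_WT cells 4 of 7 were lower and 1 higher (−0.93). Of the markers of other cell types 2 of 6 were lower and 2 higher in DAXX_WT cells (median 0.28), and 1 of 7 was lower and 1 higher in ATRX_WT cells (0.39). The part of these changes in the levels of the lamina genes was not tested.

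The same response was then measured in knockout cells, whose fold changes rest on other libraries than those of WT cells, while the spread was estimated from all 12 libraries of a series. In DAXX_KO cells LMNB1 fell 42.9-fold (log2 −5.42, SE 0.156, adjusted p = 9.27e-16), LBR 7.14-fold (log2 −2.84, SE 0.0973), TMPO 3.7-fold (log2 −1.89, SE 0.0998) and LMNB2 1.83-fold (log2 −0.87, SE 0.0831). SUN1 fell 2.002-fold (log2 −1.001, SE 0.0998), SUN2 fell 1.66-fold (log2 −0.73, SE 0.106) and LMNA fell 1.49-fold (log2 −0.57, SE 0.106, adjusted p = 0.00013). EMD rose 1.4-fold (log2 0.48, SE 0.0665). LEMD3 was at −0.25 (95% interval −0.50 to 0.01), and was called under scaling by library totals alone (−0.35, adjusted p = 0.0184). BANF1 was at −0.03, with an adjusted p of 0.742. There were 8 members called among a background of 54.5%, 7 lower and 1 higher against 27.8% and 26.8% of all genes, with a median log2 change of −0.80 over the members and −0.00 over all genes.

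In ATRX_KO cells LMNB1 fell 14.7-fold (log2 −3.88, SE 0.153, adjusted p = 3.12e-12), LBR 3.84-fold (log2 −1.94, SE 0.0893), TMPO 2.87-fold (log2 −1.52, SE 0.0834) and LMNB2 2.47-fold (log2 −1.31, SE 0.0729). SUN2 fell 2.28-fold and SUN1 1.36-fold (adjusted p = 0.00213). LMNA was at 0.10 (95% interval −0.15 to 0.34) and LEMD3 at −0.11, and neither was called. EMD was called 1.17-fold higher (adjusted p = 0.0412). This was lost without ATRX_KO control replicate 1 (0.114) or replicate 2 (0.189) or ATRX_KO etoposide replicate 1 (0.175), without a count filter (0.0864) and with only the groups compared (0.0838). BANF1 was called 1.28-fold lower (adjusted p = 0.0143), which was lost without ATRX_KO control replicate 3 (0.0513) or ATRX_KO etoposide replicate 2 (0.0764) or replicate 3 (0.0718), and with only the groups compared (0.0688). The 8 members called, 7 lower and 1 higher, stand beside 49.5% of all genes called, 25.2% lower and 24.3% higher. The median log2 change was −0.82 over the members and 0.03 over all genes.

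The next question was whether loss of DAXX or ATRX altered the lamina genes without drug. These comparisons share their libraries with the response comparisons above. In DAXX_KO control cells, LBR, LMNB1, LMNB2, TMPO and LMNA were lower than in DAXX_WT cells, and SUN1 and EMD were higher. LBR was 2.02-fold lower (log2 −1.01, SE 0.0746, adjusted p = 1.17e-09), LMNB1 1.67-fold lower (log2 −0.74, SE 0.0887), LMNB2 1.62-fold lower (log2 −0.70, SE 0.0796), TMPO 1.41-fold lower (log2 −0.49, SE 0.0861) and LMNA 1.38-fold lower (log2 −0.46, SE 0.105, adjusted p = 0.000955). SUN1 was 1.35-fold higher (log2 0.44, SE 0.0959, adjusted p = 0.000745) and EMD 1.31-fold higher (log2 0.39, SE 0.0675, adjusted p = 5.87e-05). SUN2 differed by 0.02 on the log2 scale, with a 95% interval from −0.20 to 0.23. LEMD3 was called 1.28-fold lower (adjusted p = 0.0154), and the call was lost without DAXX_WT control replicate 3 (0.111) or DAXX_KO control replicate 3 (0.0503) and under library totals alone (0.232). BANF1 was at −0.14 (adjusted p = 0.058) and was called lower with DESeq2 (0.00731), RLE size factors (0.0179) or without DAXX_KO control replicate 3 (0.0465).

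Of the members 8 were called in DAXX_KO control cells, 6 lower and 2 higher, where 53.4% of all genes were called, 26.6% lower and 26.7% higher. The median log2 difference was −0.41 over the members and 0.02 over all genes. Scaling by library totals alone moved the median of all genes by 0.18 in this comparison and raised the share of higher genes among those called from 50.1% to 66.2%, and the directions of the 8 called members stayed the same.

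In ATRX_KO control cells, LMNA, LBR, SUN2, LMNB1, TMPO, BANF1 and LMNB2 were lower than in ATRX_WT cells and no member was called higher. LMNA was 2.25-fold lower (log2 −1.17, SE 0.119, adjusted p = 5.38e-07), LBR 2.11-fold lower (log2 −1.07, SE 0.0792, adjusted p = 1.31e-08) and SUN2 1.83-fold lower (log2 −0.87, SE 0.16, adjusted p = 0.000306). LMNB1 was 1.49-fold lower (log2 −0.57, SE 0.118), BANF1 1.36-fold (log2 −0.44, SE 0.11), TMPO 1.33-fold (log2 −0.41, SE 0.078) and LMNB2 1.22-fold lower (log2 −0.29, SE 0.0709, adjusted p = 0.0032). LEMD3 was at −0.01 (adjusted p = 0.974). EMD was at −0.23 (95% interval −0.42 to −0.04, adjusted p = 0.0505), and 6 alternatives called it lower, with adjusted p from 0.0194 to 0.0494, as did leaving out ATRX_KO control replicate 3 (0.0112). SUN1 was at −0.23 (−0.45 to −0.01, adjusted p = 0.0922) and was called lower without ATRX_KO control replicate 3 (0.0366) and in a fit of all 24 libraries (0.0492). These 7 members, all lower, stand beside 41.8% of all genes called, 21% lower and 20.8% higher. The median log2 difference was −0.43 over the members and 0.02 over all genes.

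**Figure D3:**
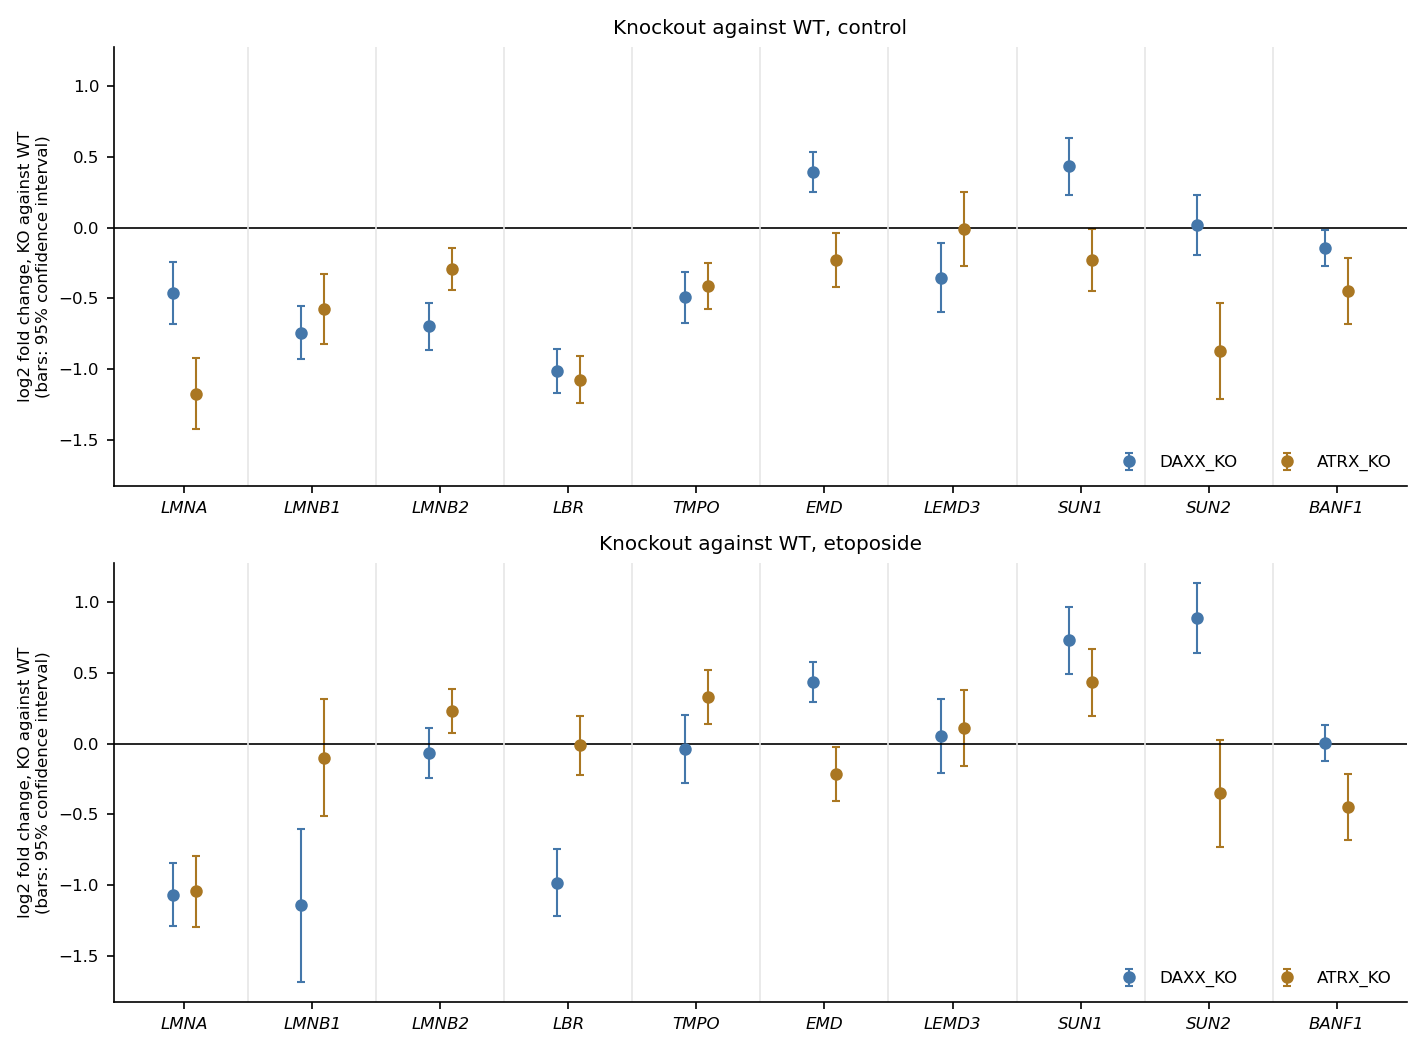
Points give the log2 difference between knockout and WT for each member, DAXX_KO in blue and ATRX_KO in brown, in control cells in the upper panel and after etoposide in the lower panel, with 95% intervals of the edgeR fit. In control cells both knockouts lie below 0 for LBR, LMNB1, TMPO, LMNB2 and LMNA. Also in control cells, EMD and SUN1 lie on opposite sides of 0 for the 2 knockouts, though neither passed the test in ATRX_KO control cells.

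Division markers again differed in the same samples. The summed proliferation level was 6396 to 6659 CPM in DAXX_KO and 7786 to 8214 CPM in ATRX_KO control libraries, below their WT, with 20 and 17 of the 26 genes lower and 1 and 0 higher. All counts of lists here stand beside 26.6% of all genes lower and 26.7% higher in DAXX_KO, and 21% and 20.8% in ATRX_KO control cells. For p53 targets the sum was 673 to 723 CPM in DAXX_KO and 789 to 834 CPM in ATRX_KO control libraries, against 553 to 579 CPM over all WT control libraries. Of the 14 targets 6 were higher and 2 lower in DAXX_KO (median log2 0.22), and 8 were higher and 0 lower in ATRX_KO control cells (0.44). Among glial and mesenchymal markers, 5 of 6 tested were lower and 1 higher in DAXX_KO (median log2 −0.51) and 5 of 7 were lower and 1 higher in ATRX_KO control cells (−0.50), VIM, CD44, NES and SOX2 being lower in both. Of the markers of other cell types, 1 of 6 was lower and 1 higher in DAXX_KO (median 0.00) and 5 of 7 were lower in ATRX_KO control cells (−0.63). The part of these lists in the lower lamina genes was not tested.

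After etoposide, LMNA was lower and SUN1 was higher in both knockouts than in WT. In DAXX_KO cells LMNB1 was 2.21-fold lower (log2 −1.14, SE 0.26, adjusted p = 0.00102), LMNA 2.1-fold lower (log2 −1.07, SE 0.106, adjusted p = 8.09e-08) and LBR 1.97-fold lower (log2 −0.98, SE 0.112, adjusted p = 5.26e-07). SUN2 was 1.85-fold higher (log2 0.89, SE 0.118, adjusted p = 3.2e-06), SUN1 1.66-fold higher (log2 0.73, SE 0.114) and EMD 1.35-fold higher (log2 0.44, SE 0.0664). LMNB2 was at −0.07 (95% interval −0.25 to 0.11) and TMPO at −0.04 (−0.27 to 0.20), so that the differences in control cells were not detected after the drug. LEMD3 (0.06) and BANF1 (0.01) were not called either. The count of 6 members, 3 lower and 3 higher, stands beside 53% of all genes, 25.2% lower and 27.9% higher, and the median was −0.02 over the members and 0.01 over all genes.

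In ATRX_KO cells after etoposide LMNA was 2.06-fold lower (log2 −1.04, SE 0.118, adjusted p = 1.89e-06) and BANF1 1.37-fold lower (log2 −0.45, SE 0.111). SUN1 was 1.35-fold higher (log2 0.44, SE 0.112, adjusted p = 0.00436) and TMPO 1.26-fold higher (log2 0.33, SE 0.0899, adjusted p = 0.00625). LMNB2 was called 1.18-fold higher (adjusted p = 0.016), and the call was lost without ATRX_KO etoposide replicate 3 (0.0665). LBR was at −0.01 (95% interval −0.22 to 0.20), LMNB1 at −0.10 (−0.51 to 0.32) and LEMD3 at 0.11 (−0.16 to 0.38). EMD was at −0.21 (adjusted p = 0.0634) and was called lower without ATRX_KO etoposide replicate 1 (0.0165). SUN2 was at −0.35 (−0.73 to 0.02, adjusted p = 0.119) and was called lower without ATRX_KO etoposide replicate 3 (−0.57, 0.0141) or without a count filter (0.0112). With 5 members called, 2 lower and 3 higher, the share was near the background of 45.9%, 22.9% lower and 23% higher. The median was −0.05 over the members and 0.01 over all genes.

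Whether the etoposide response itself differed between KO and WT was tested by the interaction, the log2 response in KO minus that in WT. In the DAXX series it was 0.87 for SUN2 (SE 0.156, adjusted p = 0.000827) and 0.63 for LMNB2 (SE 0.116, adjusted p = 0.0011), so both fell less in DAXX_KO cells. LMNA had an interaction of −0.60 (SE 0.149, adjusted p = 0.0092), since it fell in DAXX_KO cells and was at 0.03 in DAXX_WT cells. For TMPO it was 0.46 (SE 0.143, adjusted p = 0.038). LMNB2 and TMPO both started lower in DAXX_KO cells, and their DAXX_KO and DAXX_WT libraries overlapped after etoposide. The TMPO call was lost without DAXX_WT control replicate 1 (0.0647) or 2 (0.0918), DAXX_WT etoposide replicate 1 (0.0809) or 2 (0.0962), DAXX_KO control replicate 2 (0.0858) or 3 (0.0739) or DAXX_KO etoposide replicate 1 (0.121), under library totals alone (0.125) and with a replicate block (0.0503). LMNB1 was at −0.40 (95% interval −0.98 to 0.17), LBR at 0.03 (−0.26 to 0.33), EMD at 0.04 (−0.16 to 0.24) and SUN1 at 0.29 (−0.02 to 0.61). LEMD3 at 0.41 (0.05 to 0.77, adjusted p = 0.124) and BANF1 at 0.15 (−0.03 to 0.33) were not called. The 4 members called, 3 higher and 1 lower, compare with 14.2% of all genes, 8.38% higher and 5.79% lower, a split that library totals alone changed from 59.1% to 36.8% higher.

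In the ATRX series the interaction was 1.06 for LBR (SE 0.127, adjusted p = 4.72e-05), 0.74 for TMPO (SE 0.119, adjusted p = 0.000584), 0.66 for SUN1 (SE 0.153, adjusted p = 0.00771) and 0.52 for LMNB2 (SE 0.102, adjusted p = 0.00246). All 4 fell less in ATRX_KO than in ATRX_WT cells. LBR started lower in ATRX_KO cells, at a mean of 52.0 against 110 CPM in control, and both genotypes were at 13.6 CPM after etoposide. For TMPO, LMNB2 and SUN1 the ATRX_KO mean was below WT in control and above it after etoposide. LMNB1 was at 0.48 (95% interval −0.01 to 0.96) and was called without ATRX_KO control replicate 3 (0.66, adjusted p = 0.0182). SUN2 was at 0.52 (0.01 to 1.02, adjusted p = 0.158) and was called without ATRX_KO etoposide replicate 1 (0.75, adjusted p = 0.00428) or without a count filter (0.0101). LMNA was at 0.13 (−0.22 to 0.48), EMD at 0.02 (−0.25 to 0.29), LEMD3 at 0.12 (−0.26 to 0.49) and BANF1 at −0.00 (−0.33 to 0.33). The background was 16% of all genes, 8.36% higher and 7.64% lower, against 4 members higher and 0 lower. The median interaction was 0.50 over the members and −0.01 over all genes, and 0.22 and 0.02 in the DAXX series. After etoposide the summed p53 target level was 13352 to 14189 CPM in DAXX_KO and 13430 to 13615 CPM in DAXX_WT libraries, which overlapped. Of the 14 p53 targets, however, 8 were lower and 2 higher in DAXX_KO cells after the drug (median log2 −0.41), beside 25.2% and 27.9% of all genes, and the interaction was called below 0 for 10 and above 0 for 0 (median −0.68). The summed proliferation level was 1704 to 1751 CPM in DAXX_KO and 1961 to 2071 CPM in DAXX_WT libraries, with 12 of the 26 genes lower and 7 higher (median −0.16). For the ATRX libraries the summed p53 target level was 9412 to 10309 CPM in ATRX_KO and 14007 to 14287 CPM in ATRX_WT libraries, and 10 of the 14 were lower and 0 higher (median −0.67), beside 22.9% and 23% of all genes, with 12 interactions called below 0 and 0 above (median −1.22). The summed proliferation levels of these libraries were 2006 to 2210 CPM and 2566 to 2675 CPM, with 12 of the 26 genes lower and 4 higher (median −0.21). The part of these lists in the interactions of either series was not tested.

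The effects of both knockouts were set against each other in a model of all 24 libraries, as the log2 effect of DAXX_KO minus that of ATRX_KO, each against its own WT. In control cells the difference was 0.89 for SUN2 (SE 0.205, adjusted p = 0.0012), 0.71 for LMNA (SE 0.174, adjusted p = 0.0021), 0.66 for SUN1 (SE 0.136, adjusted p = 0.000363) and 0.63 for EMD (SE 0.114, adjusted p = 9.26e-05). Relative to its own WT, LMNA was thus lowered more in ATRX_KO cells, while SUN2 was lower in ATRX_KO cells and at 0.02 in DAXX_KO cells. For LMNA the WT control groups themselves differed, at 821 ± 23.4 CPM in DAXX_WT and 1115 ± 57.3 CPM in ATRX_WT cells. The DAXX_KO and ATRX_KO control groups were at 595 ± 86.6 and 495 ± 95.3 CPM (SD, scaled within each series), and their libraries overlapped. The part of the WT groups in the LMNA difference was not tested. EMD and SUN1 were higher in DAXX_KO cells relative to their WT than in ATRX_KO cells. LMNB2 had a difference of −0.40 (SE 0.107, adjusted p = 0.00437), with the larger fall in DAXX_KO cells, and was not called under library totals alone (0.0516). LBR differed by 0.06 (95% interval −0.15 to 0.28), LMNB1 by −0.16 (−0.48 to 0.15) and TMPO by −0.08 (−0.32 to 0.16). LEMD3 was at −0.34 (adjusted p = 0.119). BANF1 was at 0.30 (adjusted p = 0.073) and was called without ATRX_KO control replicate 3 (0.0432), under library totals alone (0.0104) and with a stricter count filter (0.0467). The 5 members called, 4 higher and 1 lower, compare with 34.1% of all genes, 17% higher and 17.2% lower. Library totals alone moved the median of all genes by 0.12 here, and the share of higher genes among those called from 49.7% to 62.7%.

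After etoposide the difference was 1.22 for SUN2 (SE 0.232, adjusted p = 0.000169), −0.99 for LBR (SE 0.141, adjusted p = 4.14e-06), 0.63 for EMD (SE 0.113, adjusted p = 8.61e-05) and 0.43 for BANF1 (SE 0.131, adjusted p = 0.0113). LBR was thus 1.97-fold below WT in DAXX_KO cells, while its log2 difference from WT was −0.01 in ATRX_KO cells. LMNB1 had a difference of −1.07 (SE 0.357, adjusted p = 0.0215), which was lost without DAXX_WT etoposide replicate 2 (0.0501) or DAXX_KO etoposide replicate 2 (0.0625) or 3 (0.0616). TMPO had a difference of −0.39 (SE 0.142, adjusted p = 0.0357), lost without DAXX_WT etoposide replicate 1 (0.0532) or 3 (0.0911), DAXX_KO etoposide replicate 2 (0.0862) or 3 (0.113), ATRX_WT etoposide replicate 1 (0.0563) or 3 (0.0743), or ATRX_KO etoposide replicate 2 (0.0858). LMNB2 had a difference of −0.32 (SE 0.113, adjusted p = 0.0289), lost without DAXX_WT etoposide replicate 1 (0.1), DAXX_KO etoposide replicate 3 (0.106), ATRX_WT etoposide replicate 3 (0.0647) or ATRX_KO etoposide replicate 2 (0.0573) or 3 (0.0707). Without a count filter the LMNB2 (0.0985) and TMPO (0.145) calls were lost as well. LMNA was at −0.05 (95% interval −0.40 to 0.31), SUN1 at 0.27 (−0.04 to 0.59) and LEMD3 at −0.07 (−0.44 to 0.29). The 7 members called, 3 higher and 4 lower, compare with 34.5% of all genes, 17.7% higher and 16.8% lower.

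The WT control libraries of the 2 series were compared as well, under the titles DAXX WT and ATRX WT. LMNB2 was lower in the DAXX series, with a log2 difference of −0.40 (SE 0.0748, adjusted p = 0.000751). LMNA was called lower there, also with −0.40 (SE 0.123, adjusted p = 0.0301), and lost the call without DAXX_WT control replicate 1 (0.0515), 2 (0.0774) or 3 (0.101) or ATRX_WT control replicate 1 (0.0659) or 3 (0.101), and with a replicate block (0.0666). The other 8 members were not called, with log2 differences from −0.33 for SUN2 to 0.25 for LEMD3. Thus 2 members were called, both lower, beside 13.2% of all genes, 7.22% lower and 6.01% higher, and library totals alone moved the share of higher genes among those called from 45.4% to 29.3%. The median log2 difference was −0.21 over the members and −0.01 over all genes. The sources used here do not say what set the series apart.

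Other genes of the envelope gave a frame for these values. Of the nuclear pore genes tested, 25 of 29 fell in DAXX_WT cells after etoposide and 3 rose, and 25 of 30 fell and 5 rose in ATRX_WT cells. Of all genes 30.6% were lower and 29.6% higher in DAXX_WT cells, and 29.8% and 31.7% in ATRX_WT cells. NDC1, a membrane protein of the pore, fell with log2 changes of −2.30 (SE 0.087) and −2.39 (SE 0.096), NUP155 with −2.10 and −2.23 and NUP188 with −1.61 and −1.67. The medians of the pore list were −1.25 and −1.23, close to those of the lamina genes and below those of all genes (0.02 and 0.07). Among 7 further inner membrane genes, 4 and 5 fell and 1 rose in the DAXX and ATRX series, beside 60.2% and 61.5% of all genes called. NRM (nurim) fell with −1.61 and −2.09 and TMEM201 with −1.47 and −1.11. TM7SF2, a sterol reductase related to LBR, rose with 2.97 (SE 0.19) and 3.05 (SE 0.27). In DAXX_KO cells TM7SF2 rose less, with 0.85 (SE 0.21), and the interaction was −2.11 (adjusted p = 6.4e-05). In ATRX_KO cells it rose with 2.08 (SE 0.26), and the interaction of −0.98 was not called (adjusted p = 0.0966). Whether the 2 interactions differ was not tested.

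Partners of SUN proteins and enzymes of lamin processing gave mixed directions after etoposide, with shares called that are to be read against the 60.2% and 61.5% of all genes called. Of 7 LINC and torsin genes tested, 1 rose and 3 fell in DAXX_WT cells, and 1 rose and 4 fell in ATRX_WT cells. The nesprin gene SYNE1 rose with log2 changes of 0.47 and 0.66, whereas SYNE2 fell with −0.93 and −0.73 and SYNE3 with −2.27 and −1.76. Among 6 genes of lamin maturation, 3 fell and 1 rose in each series. ICMT, which methylates the farnesylated end of lamins, fell with −1.37 and −1.33, ZMPSTE24, the prelamin A protease, with −0.35 and −0.36, and FNTB, a subunit of farnesyltransferase, rose with 0.59 and 0.56. Of 11 genes of envelope reassembly after mitosis, 4 rose and 3 fell in DAXX_WT cells, and 3 rose and 5 fell in ATRX_WT cells. VRK1, the kinase that releases BAF from DNA, fell with −1.70 and −1.65, while the ESCRT-III genes CHMP3 and CHMP2A rose with 1.02 and 0.96 and with 0.91 and 0.82.

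**Figure D4:**
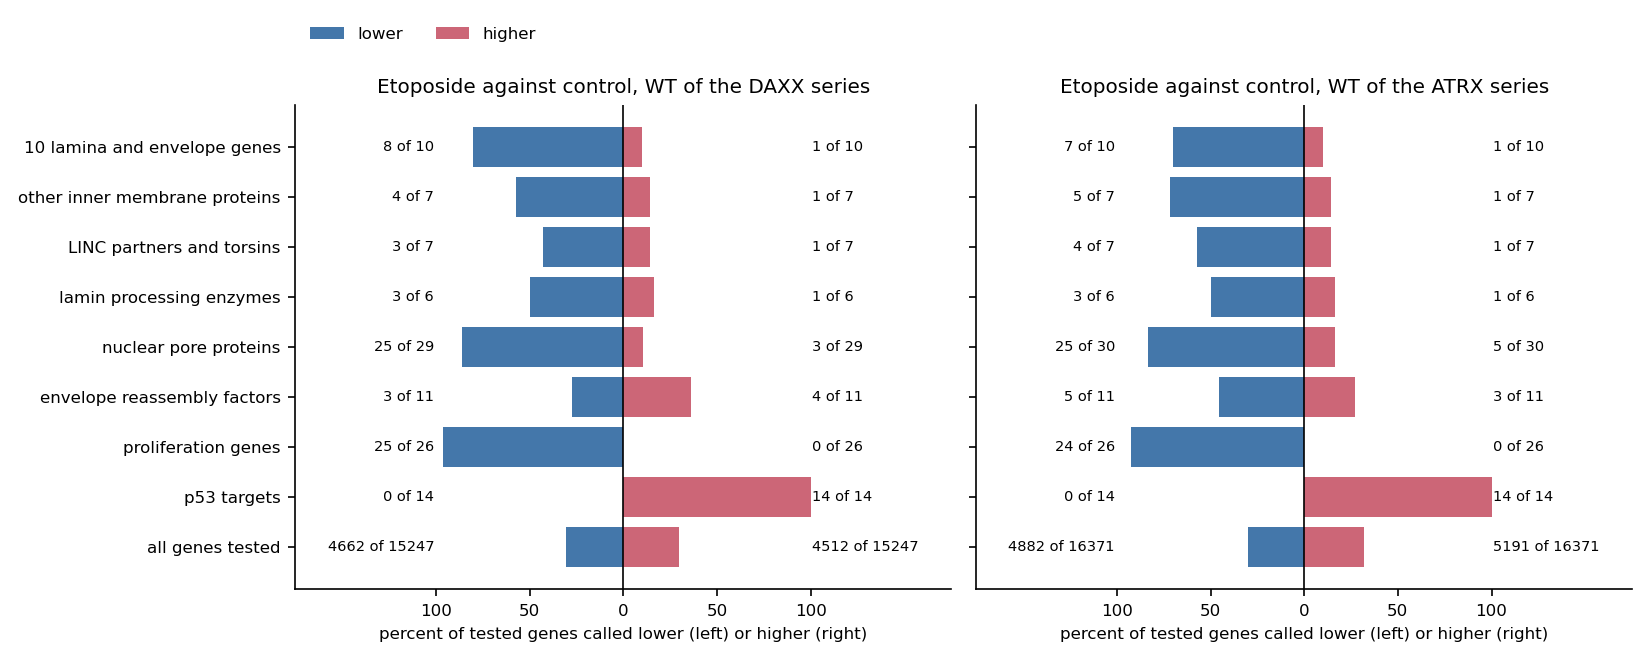
Bars give the percent of tested genes of each list that were called lower (left) or higher (right) after etoposide in WT cells of the DAXX and ATRX series, with all genes tested at the bottom. Pore and proliferation genes were mostly lower, p53 targets were all higher, and 8 and 7 of the 10 lamina genes were lower.

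In knockout cells without drug, 17 of 29 pore genes were lower and 1 was higher in DAXX_KO, and 7 of 30 were lower and 4 higher in ATRX_KO cells. The background was 26.6% lower and 26.7% higher in DAXX_KO, and 21% lower and 20.8% higher in ATRX_KO cells, to which the share of lower pore genes in ATRX_KO cells was close. NUP50 was lower in both, with log2 differences of −1.23 (SE 0.08) and −1.36 (SE 0.11), as were NUP88 (−0.96 and −1.07) and NUP85 (−1.28 and −0.60). The difference between the knockout effects was called for 13 pore genes of 30 tested, beside 17.2% of all genes lower and 17% higher in that comparison. In all 13 it was below 0, so that the log2 effect of DAXX_KO was below that of ATRX_KO. SEC13 had the smallest adjusted p among them (−1.01, adjusted p = 3.18e-09). Of the 7 inner membrane genes 1 was higher and 2 lower in DAXX_KO, and 0 were higher and 3 lower in ATRX_KO control cells. TMEM201 was lower in both knockouts (−0.61 and −0.70), and so was NARF (−0.69 and −0.83), whose protein binds prelamin A. Of the 11 reassembly genes 2 were higher and 4 lower in DAXX_KO, and 2 were higher and 2 lower in ATRX_KO control cells, where 53.4% and 41.8% of all genes were called. CHMP4B was higher in both (0.82 and 0.56), and CHMP7, which recruits ESCRT-III to the reforming envelope, was lower (−0.44 and −1.02). SYNE2 was higher in both (0.73 and 0.64), and SYNE1 was higher in DAXX_KO cells (0.76). Of 7 LINC and torsin genes 3 were higher and 2 lower in DAXX_KO and 1 was higher and 1 lower in ATRX_KO control cells, and of 6 lamin maturation genes 0 and 1 were higher and 3 and 2 lower. Under library totals alone 14 pore genes were called lower in DAXX_KO control cells.

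After etoposide 3 pore genes were higher and 15 lower in DAXX_KO than in DAXX_WT cells, and 8 were higher and 7 lower in ATRX_KO cells, where library totals alone gave 13 and 6. Of all genes 27.9% were higher and 25.2% lower in DAXX_KO and 23% and 22.9% in ATRX_KO cells. TMEM201 was lower in both knockouts (−0.71 and −1.05). The interaction was called above 0 for 11 and below 0 for 0 of 29 pore genes in the DAXX series, with 18 not called, and above 0 for 6 and below 0 for 2 of 30 in the ATRX series, with 22 not called. NUP188 was called in both, with 0.60 and 0.47. Of the 26 proliferation genes it was called above 0 for 13 and below 0 for 1 in the DAXX series, with 12 not called, and for 5 and 3 in the ATRX series, with 18 not called. Of all genes 8.38% were called above 0 and 5.79% below in the DAXX series, and 8.36% and 7.64% in the ATRX series. Library totals alone gave 7 and 1 for pore and 8 and 2 for proliferation genes in the DAXX series, and 8 and 1 and 7 and 3 in the ATRX series.

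To describe which genes shared the pattern of a member, log2 CPM over the 8 group means was correlated with that of 9180 genes at a mean of at least 10 CPM, each series centred on its own mean. The 8 points share a strong drug response and, within a series, the scaling, and the values are a description. LMNB1 was most like AURKB (r = 0.9994), KIFC1 (0.9993) and KNL1 (0.9990), all of which act in mitosis. The 3 nearest genes were ACTN4, ABI2 and TAF1B for LBR, TEAD1, RWDD1 and ECT2 for TMPO, STK24, PPM1G and HSPD1 for LMNB2 and IFNAR2, VOPP1 and SH3KBP1 for SUN2. LMNA was most like TBC1D23 (r = 0.984), S100A6 and NDUFB6. Among the members, LMNB1 had r = 0.24 with LMNA and −0.76 with EMD, while LMNB1, LMNB2, LBR and TMPO had r from 0.96 to 0.99 with each other.

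Genes next to a member on the chromosome were measured in the same fits, taking up to 30 tested genes on each side. Around SUN2 on chromosome 22, the 60 neighbours had a median log2 difference of −0.69 in DAXX_KO and −0.67 in ATRX_KO control cells, whereas SUN2 itself was at 0.02 and −0.87. Around EMD on chromosome X, 58 neighbours had a median of 0.48 in DAXX_KO and 57 had a median of 0.04 in ATRX_KO control cells, beside 0.39 and −0.23 for EMD. LBR lay at −1.01 and −1.07 among neighbours with medians of −0.32 and −0.38, and LMNA at −0.46 and −1.17 among medians of −0.26 and −0.18. The 60 neighbours of LMNB1 had medians of −0.27 and −0.04. For LMNB2, TMPO and LEMD3 the medians of the neighbours lay within 0.10 of 0 in both knockouts without drug. Around SUN1, near the end of chromosome 7, 35 neighbours had medians of 0.20 and −0.16, beside 0.44 and −0.23 for SUN1, and the 60 neighbours of BANF1 had medians of 0.18 and 0.08, beside −0.14 and −0.44. Copy number was not measured, and its part in the levels of SUN2, EMD and SUN1 was not tested.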

How the data were processed

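QuantSeq 3′ mRNA libraries from 24 samples were sequenced as single-end reads of 75 bases. The authors used STAR on hg19 and then RSEM (1.2.3 in the submitters' processing notes) with Ensembl genes of GRCh37, and the deposited values are the estimated counts of each gene, all whole numbers, without normalization. From them, edgeR 4.0.16 in R 4.3.3 was run on the 12 libraries of a series in 1 model of 4 groups, with TMM factors from 0.939 to 1.10 and genes kept by filterByExpr (minimum count 10, minimum total 15). The quasi-likelihood test was adjusted by the Benjamini-Hochberg method over all genes tested, and a gene was called at an FDR of 0.05. Differences between series came from a model of all 24 libraries and 8 groups. CPM used TMM-scaled totals of each series. Intervals are 95% intervals of the fit.

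The members and lists were chosen with earlier results of these data known. The rule was to name all members in every comparison and, of each other list, the counts and up to 4 genes with the smallest adjusted p, and the text gives the other lists only for some comparisons. Genes that the text takes from a second comparison were chosen after their values were seen. Symbols and positions came from an annotation on GRCh37, which matched 55501 of 57736 gene IDs holding 98.8% of counts. Replicates of a group differed by more than counting error, with a chi-square of 2.16 to 17.1 per degree of freedom over 24 pairs, and the common biological coefficient of variation was 0.0825 and 0.106 in the DAXX and ATRX series. Alternatives were DESeq2 1.42.0, RLE size factors, library totals alone, 2 other count filters, other sets of libraries, a replicate block and leaving out each library.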

Additional observations from a re-analysis of the deposited data

Results flagged for a closer look

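Effects that differed between genotypes or between knockouts were picked out where the test of the difference itself passed an FDR of 0.05 in edgeR. The response to etoposide differed between DAXX_KO and DAXX_WT cells for LMNA (log2 −0.60), LMNB2 (0.63), TMPO (0.46) and SUN2 (0.87). It differed between ATRX_KO and ATRX_WT cells for LMNB2 (0.52), LBR (1.06), TMPO (0.74) and SUN1 (0.66). The effect of DAXX_KO without drug differed from that of ATRX_KO for LMNA (0.71), LMNB2 (−0.40), EMD (0.63), SUN1 (0.66) and SUN2 (0.89). After etoposide the knockout effects differed for LMNB1 (−1.07), LMNB2 (−0.32), LBR (−0.99), TMPO (−0.39), EMD (0.63), SUN2 (1.22) and BANF1 (0.43). Errors, adjusted p-values and the libraries on which the weaker of these calls rest stand with each comparison above. LMNB2 is in all 4 lists, and in both series its fall after etoposide was smaller in KO cells, which started from a lower level.

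With 3 libraries in each group, no test of a single library against its group was applied. ATRX_KO etoposide replicate 1 stood apart by its counts, with 13.3 CPM of SUN2 against 22.7 and 27.0 CPM and 226 CPM of BANF1 against 160.1 and 155 CPM in replicates 2 and 3. No column of the table was left out of the comparisons.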

How the results depend on the processing

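Depth limits LMNB1 after etoposide, which rests on 11 to 27 counts a library in the DAXX series, and the spread of 3 libraries limits all calls. Of 130 values of a member in a comparison, 113 to 127 kept direction and call under each of the settings run on all comparisons (DESeq2, RLE size factors, library totals alone, both count filters, replicate block), and 95 of 100 and 77 of 80 in a fit of 24 libraries and with only the groups compared. With 1 library left out, 928 of 1020 did, 44 lost and 9 gained a call and 39 turned sign, all of these uncalled values. Calls lost or gained are named with each comparison above, except for WT against WT without drug, where LBR (DESeq2), BANF1 (library totals alone) and SUN2 (no filter) were gained. Library totals alone moved the median of all genes by −0.11 both for the etoposide response of DAXX_KO cells and for the DAXX interaction, and raised the share of higher genes among those called from 50.1% to 60.2% in ATRX_KO against WT after etoposide. No cause was tested for any change named here.

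No pairing by replicate number was detected: same-numbered libraries had correlations of −0.333 to 0.0835 over 36 comparisons, none above 0.1, and 3 of 24 libraries correlated best with their own number. The labels do not say whether same-numbered libraries were prepared together, and these correlations cannot settle it. The replicate block changed 3 calls: TMPO in the DAXX interaction (0.46, adjusted p = 0.0503) and LMNA in WT against WT (−0.46, 0.0666) were lost and EMD in ATRX_KO control cells (−0.23, 0.0494) was gained, so that the count in WT against WT went from 2 to 1. The other counts of calls stayed within 1.5 times.

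The sign turned for these uncalled log2 values. With DESeq2, SUN2 in DAXX_KO control became −0.021, BANF1 in DAXX_KO etoposide −0.014, the BANF1 response in DAXX_KO 0.0077 and the BANF1 interaction in the ATRX series 0.017, and RLE size factors gave −0.020, −0.019, 0.012 and 0.02. With library totals alone, BANF1 became 0.043 in DAXX_KO control, LMNB2 0.0078 and TMPO 0.038 in DAXX_KO etoposide, LBR −0.079 and EMD −0.070 in the DAXX interaction, LEMD3 0.052 in ATRX_KO control, LMNB1 0.00056 and LBR 0.088 in ATRX_KO etoposide, LMNA 0.00073 in the ATRX_WT response, BANF1 0.031 in the ATRX interaction and TMPO 0.045 between knockouts in control. Without a count filter, SUN2 in DAXX_KO control became −0.0054, BANF1 in DAXX_KO etoposide −0.0084 and BANF1 in the ATRX interaction 0.00062. With at least 10 counts in every library, BANF1 became −0.018 in DAXX_KO etoposide and 0.0082 in the DAXX_KO response, LBR −0.0030 in the DAXX interaction, LEMD3 0.00025 in ATRX_KO control and LMNA 0.034 in the ATRX_WT response. BANF1 in DAXX_KO etoposide became −0.0026 with only the groups compared, and in a fit of 24 libraries LBR became 0.02 in ATRX_KO etoposide and BANF1 0.027 in the ATRX interaction.

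Leaving out 1 library at a time turned the sign within these ranges. In the DAXX series they were −0.11 to 0.14 for SUN2 in control, −0.12 to 0.023 for LMNB2, −0.16 to 0.047 for TMPO, −0.0016 to 0.12 for LEMD3 and −0.016 to 0.040 for BANF1 after etoposide, −0.044 to 0.0013 for the BANF1 response in DAXX_KO, and −0.073 to 0.11 for LBR and −0.01 to 0.094 for EMD in the interaction. In the ATRX series they were −0.056 to 0.045 for LEMD3 in control, −0.16 to 0.0070 for LMNB1 and −0.042 to 0.048 for LBR after etoposide, −0.054 to 0.22 for the LMNA response in ATRX_KO, and −0.011 to 0.26 for LMNA, −0.054 to 0.10 for EMD and −0.19 to 0.094 for BANF1 in the interaction. Between the knockouts they were −0.32 to 0.015 for LMNB1 and −0.01 to 0.094 for LBR in control, and −0.22 to 0.051 for LMNA and −0.24 to 0.050 for LEMD3 after etoposide. The count of members called ranged from 1 to 2 in WT against WT and from 4 to 7 between the knockouts after etoposide, the 4 being without DAXX_KO etoposide replicate 3. With every library in, 13.2% and 34.5% of all genes were called in these comparisons.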
